A study of Mus musculus with 12 samples.

Results

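Purkinje cell identity genes are genes whose products mark or build the Purkinje neuron, and 29 of them are described here. They were listed by name, with ion channels and the genes of the metabotropic glutamate receptor pathway left out. No cut-off on their values was used, but earlier results of these data were known when they were listed. All 29 had exactly 1 row among the 57010 genes of the count table, and all 29 were among the 19166 genes with enough counts to be tested. Bulk RNA from crus 1, part of the lateral hemisphere of the cerebellum, was sequenced in 3 groups of 4 mouse libraries. Fmr1 knockout mice were given poly(I:C), a synthetic double-stranded RNA that acts as a viral mimic, by intraperitoneal injection. The other knockout group was labelled saline, and its titles call it sham. FVB mice, named as the background strain of the knockouts, were labelled saline as well. An injected FVB group is not analysed here, so the injection can be read only within the knockout. Age, sex, dose, interval after injection, the knockout allele and whether knockout and FVB mice were littermates are not stated in the labels. Replicates are numbered libraries, and no label says that each came from its own animal, so the p-values reflect only how much these libraries varied.

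Purkinje cells are the large inhibitory neurons whose axons form the output of the cerebellar cortex. They receive parallel fibre synapses from granule cells and climbing fibre synapses from the inferior olive, and they sit among Bergmann glia with which they exchange surface signals. Their identity is set up by transcription factors such as the retinoid-related orphan receptor Rora and the early B-cell factors, and their function rests on heavy calcium buffering, calcium pumps and G-protein signalling. Many of the genes below are used as markers of the cell in tissue sections, and loss of several of them causes ataxia in mice. In bulk tissue, fewer Purkinje cells and less RNA per Purkinje cell cannot be told apart.

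The upstream bases of 2 members are shown because Rora is itself a member and binds the half-site AGGTCA. Dner was called lower after poly(I:C) in the knockout, where Rora was not called, and Pcp2 is the gene most often used to mark the cell. Whether Rora acts on either gene here was not tested. Each sequence is the 250 bases before the start site, from RefSeq on GRCm38.p6, on the gene's own strand, with the half-site in capitals. The Dner window is chr1:84696222-84696471 on the minus strand and its half-site begins 111 bases before the start. For Pcp2 it is chr8:3625548-3625797 on the minus strand, at its most upstream start, and the half-site begins 12 bases before the start.
Dner: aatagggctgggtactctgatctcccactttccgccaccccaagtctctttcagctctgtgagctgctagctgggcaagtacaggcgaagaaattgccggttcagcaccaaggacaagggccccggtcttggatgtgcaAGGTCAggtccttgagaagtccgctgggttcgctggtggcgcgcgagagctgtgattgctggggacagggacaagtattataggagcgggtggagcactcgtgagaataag
Pcp2: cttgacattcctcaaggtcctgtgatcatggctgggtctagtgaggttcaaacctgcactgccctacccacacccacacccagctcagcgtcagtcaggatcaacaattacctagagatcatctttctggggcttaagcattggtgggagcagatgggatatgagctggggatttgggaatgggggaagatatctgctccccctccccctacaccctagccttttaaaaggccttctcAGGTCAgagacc

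RefSeq promoters matched 20 of the 29 members by symbol, and Ebf2 and Mtss1, both called below, were not among them. AGGTCA stood on either strand in the upstream bases of 6 of the 20 (30%), namely Pcp2, Pcp4, Dner, Rgs8, Arhgef33 and Car7, and in those of 15.8% of 27025 genes. Of these 6 only Dner was called in any comparison below. The palindromic core of early B-cell factor sites, CCCNNGGG, was found in Pvalb, Gng13, Slc1a6, Car7, Ptprr and Atp2b2, again 6 of 20, against 13.4% of all genes. A gene with several start sites was counted if any of its windows held the motif, and Car7 was counted for both motifs. These are matches of letters and say nothing of binding.

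Total counts per library were 39352860 to 56390207 for poly(I:C) knockouts, 38723699 to 50248411 for saline knockouts and 35155420 to 48717119 for FVB. Fmr1, the targeted gene, was at 33.9 to 36.0 CPM (the depth-normalised count, relative to scaled library totals) in the poly(I:C) knockout, 27.9 to 36.7 CPM in the saline knockout and 85.5 to 108 CPM in FVB. Every library therefore fitted its genotype label although the transcript was still counted in the knockouts. Granule cell genes marked the tissue as cerebellum in all 12 libraries (Gabra6 847 to 1116 CPM, Cbln3 1744 to 2228 CPM). Forebrain genes ran from Emx1, at most 0.191 CPM in any library, to Neurod2, which granule cells also use, at 100 to 163 CPM. Genes of brainstem and deep nuclei ran from Chat and Isl1, with 6 and 4 counts over all 12, to Slc17a6 at 15.7 to 24.8 CPM and Spp1 at 11.0 to 32.3 CPM. Ttr, the transthyretin gene of choroid plexus, stood at 2167 and 2631 CPM in poly(I:C) knockouts 2 and 3 and at 4156 CPM in saline knockout 2, while the other 9 libraries had 1.63 to 65.3 CPM. The 12 choroid plexus genes summed to 153 to 4075 CPM in the poly(I:C) knockout, 203 to 6263 CPM in the saline knockout and 209 to 284 CPM in FVB, with Kcne2, Sostdc1 and Prlr at 0 in at least 1 library. The results below are therefore given with and without those 3 libraries where the calls differ.

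Purkinje cell genes were among the more abundant transcripts of this tissue. Their median level was 172 CPM, against 12.8 CPM for all tested genes, and the least counted member, Foxp2, had 286 counts in its lowest library. Per length, in RPKM (CPM divided by exon length in kilobases, mean of 12 libraries), the calcium buffer Pvalb stood highest at 746 and the glycolytic enzyme Aldoc next at 694. Both are used outside Purkinje cells, Pvalb in molecular layer interneurons and Aldoc in astrocytes, so the bulk level is not that of 1 cell type. Car8 followed at 362 RPKM, Nsg1 at 317, Calb1 at 208 and Ppp1r17 at 198. Most transcription factors were at the other end, with Foxp2 at 0.582, Ebf2 at 2.04, Skor2 at 4.17, Ebf1 at 7.42 and Lhx5 at 7.59 RPKM. Rora, at 27.7 RPKM, was the highest of the 8 transcription factors. Pcp4, a small calmodulin-binding protein that is a classical Purkinje cell product, was at only 14.5 RPKM and ranked 22 of 29.

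Some of these levels depend on how reads over shared exons were assigned, which no label or header states. In the GENCODE M21 annotation 13 of the 29 members share exon bases with another gene. Pcp2 shares 51.5% of its exon bases with Pet100 and Gng13 shares 51.6% with Chtf18, each on the opposite strand, and Pcp4 shares 23.7% with Igsf5 on its own strand. Among the members called below, Ebf2 shares 6.12% with an antisense gene, Dner 1.61% and Rora 0.627%, and Mtss1 shares none.

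The members also differed in how steady they were between libraries of 1 group. Mtss1 had the smallest within-group SD, 0.065 on the log2 CPM scale, followed by Lhx1 at 0.074. Pcp4 at 0.33 and Grid2ip at 0.30 had the largest. A change of a given size was therefore easier to call in Mtss1 than in Pcp4.

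**Figure D1:**
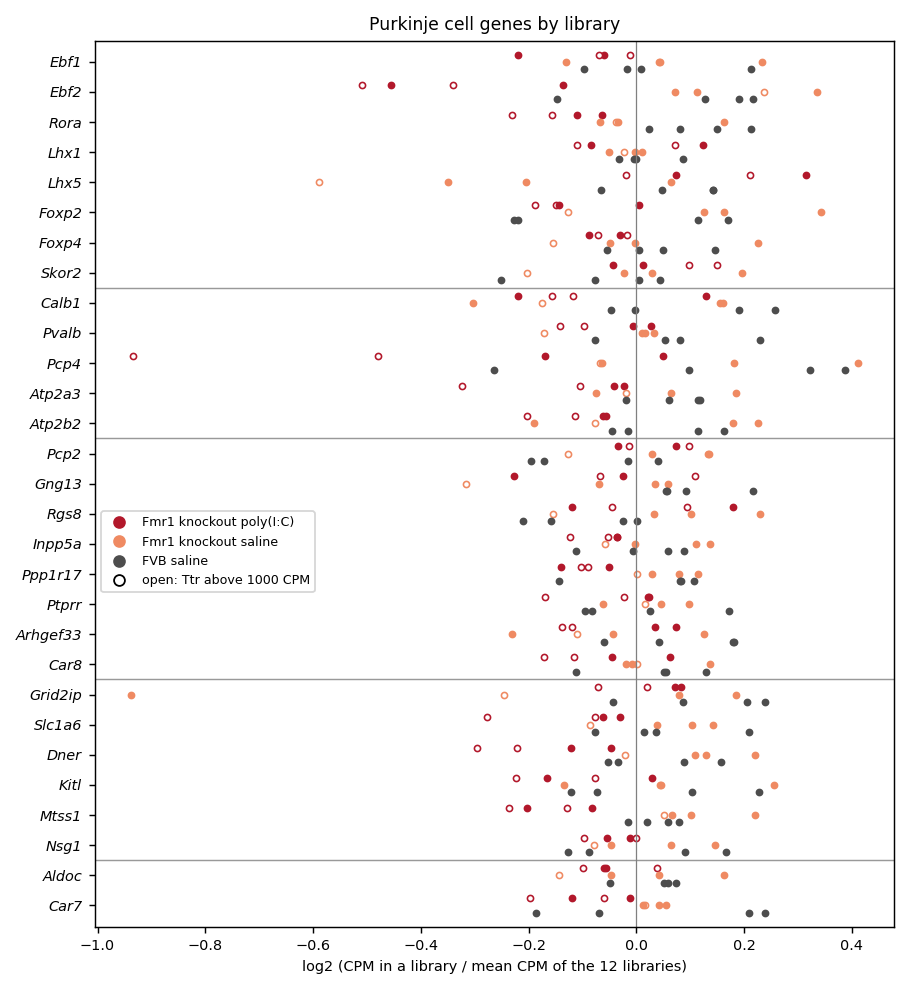
Each of the 29 Purkinje cell genes is a row, grouped by role, and each point is 1 library, placed by the log2 ratio of its CPM to the mean of the 12 libraries; colour gives the group, and open points are the 3 libraries with Ttr above 1000 CPM. Poly(I:C) knockout points lie left of the saline knockout points without overlap for Ebf2, Ppp1r17, Dner, Car7 and Mtss1, and 1 saline knockout library lies far left of the rest in Grid2ip.

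Between the saline knockout and FVB no Purkinje cell gene was called. A gene is called at a Benjamini-Hochberg adjusted p under 0.05 over all 19166 tested genes, and by that rule 0 of 29 members were called in this comparison, against 1.53% of all genes. At an unadjusted p under 0.05 there was 1 member, Lhx5, against 12% of all genes, and DESeq2 and limma-voom also called none. Below 0 were 51.7% of the members and 49.1% of all genes. Fold changes (saline knockout over FVB, log2) ran from −0.32 to 0.17, with 15 below 0 and 14 above, and their median was −0.0037, against 0.0033 for all genes. For 27 of the 29 members the 95% interval of the difference lay within 0.5 of 0 on the log2 scale. Intervals that reached further were those of Lhx5 and Grid2ip, and that of Grid2ip reached −0.72. The margin of 0.5 is larger than several changes called below, such as −0.28 for Dner, −0.27 for Mtss1 and −0.26 for Rora. No member had groups without overlap, against 7.02% of all genes.

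After poly(I:C), 3 Purkinje cell genes were called lower and none higher in the knockout: the transcription factor Ebf2, the membrane-shaping protein Mtss1 and the Notch ligand Dner. That is 10.3% of the members, against 2.87% of all genes called in either direction and 1.06% called lower. Fold changes (poly(I:C) knockout over saline knockout) were below 0 for 23 of 29 members (79.3%), against 50.4% of all genes, and their median was −0.09, against −0.0017. At an unadjusted p under 0.05 there were 9 members (31.0%, of which 8 lower), against 15.5% of all genes. Groups did not overlap for 5 members, all lower (Ebf2, Ppp1r17, Dner, Car7 and Mtss1), and 4.82% of all genes were lower without overlap. The members are more abundant than the average gene, and the part of abundance in these shares was not tested. Lists for other cells also had medians below 0: granule cells (−0.08), interneurons (−0.09), astrocytes and Bergmann glia (−0.08), and oligodendrocytes (−0.07). So did microglia (−0.18) and deep nuclei and brainstem (−0.07), while forebrain (0.01) and choroid plexus (0.28) did not. A median below 0 was thus not particular to Purkinje cell genes.

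Between the poly(I:C) knockout and FVB, 3 members were called lower and none higher: Ebf2 and Mtss1 again, and Rora. That is 10.3% of the members, against 7.05% of all genes called in either direction and 3.24% called lower. Fold changes (poly(I:C) knockout over FVB) were below 0 for 25 of 29 (86.2%), against 49.8% of all genes, with a median of −0.12, against 0.0010. An unadjusted p under 0.05 was reached by 8 members, all lower (27.6%, against 21.3% of all genes). Rora, Atp2a3, Mtss1 and Atp2b2 were lower without overlap between groups, against 7.46% of all genes. This comparison has its poly(I:C) libraries in common with the previous one, so its calls are not a second observation of the injection.

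Without the 3 libraries high in Ttr, which leaves 2 poly(I:C) knockouts, 3 saline knockouts and 4 FVB libraries, no member was called in any comparison. There were then 4 members at an unadjusted p under 0.05 in each comparison with the poly(I:C) knockout. Over all genes of the same fits, 1.09% were called and 7.58% had an unadjusted p under 0.05 for poly(I:C) over saline, and 2.81% and 12.2% for poly(I:C) knockout over FVB. The fold changes of the called genes were −0.46 for Ebf2, −0.27 for Mtss1 and −0.24 for Dner over the saline knockout (adjusted p = 0.290, 0.209 and 0.422). Over FVB they were −0.38 for Ebf2, −0.20 for Rora and −0.17 for Mtss1 (adjusted p = 0.235, 0.315 and 0.351). Member medians were −0.11 over the saline knockout and −0.09 over FVB, with 25 and 23 of 29 members below 0. Medians of all genes were 0.00077 and 0.0018, with 49.8% and 49.6% of them below 0.

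**Figure D2:**
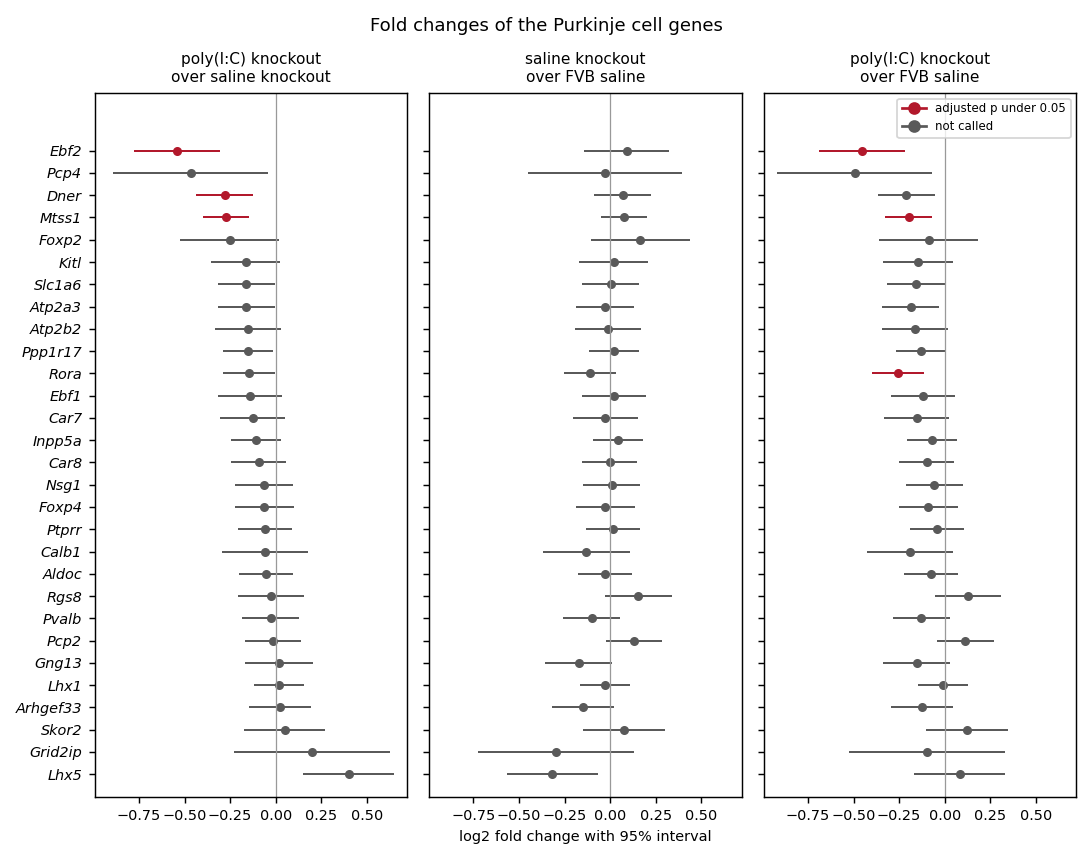
Log2 fold changes of the 29 genes (points) with 95% intervals (lines) for poly(I:C) knockout over saline knockout, saline knockout over FVB, and poly(I:C) knockout over FVB, in red where the adjusted p is under 0.05. Red points are Ebf2, Dner and Mtss1 in the left panel and Ebf2, Mtss1 and Rora in the right panel, and the middle panel has none.

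Among the 8 transcription factors, Ebf2 and Rora were called and the other 6 were not. Ebf2, an early B-cell factor needed in mice for the migration and subtype identity of Purkinje cells, had 12.9, 11.2, 9.95 and 10.3 CPM in poly(I:C) knockouts, 17.9, 16.7, 15.3 and 14.9 CPM in saline knockouts and 16.4, 16.2, 12.8 and 15.5 CPM in FVB. All 4 poly(I:C) knockouts were below every saline knockout, while poly(I:C) knockout 1 overlapped FVB 3. The means were 11.1 ± 1.30 CPM in poly(I:C) knockouts, 16.2 ± 1.36 CPM in saline knockouts and 15.2 ± 1.67 CPM in FVB (SD, n = 4 each). Ebf2 fell by 31.4% relative to the saline knockout (log2 −0.54, SE 0.110, adjusted p = 0.00766) and by 27.0% relative to FVB (log2 −0.45, SE 0.110, adjusted p = 0.0159). It was the largest called change among the members, in one of the least abundant of them, and leaving out any single library kept the call against the saline knockout (adjusted p 0.00341 to 0.0397). Against FVB the call ended without poly(I:C) knockout 3 (adjusted p = 0.0665) or 4 (0.0526), FVB 1 (0.0503) or FVB 2 (0.0526).

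Its paralog Ebf1 was not called. Ebf1 averaged 68.1 ± 4.15 CPM in poly(I:C) knockouts, 75.1 ± 7.78 CPM in saline knockouts and 74.0 ± 6.95 CPM in FVB, and its fold changes were −0.14 over the saline knockout and −0.12 over FVB (adjusted p = 0.437 and 0.424). The difference in fold change between the 2 paralogs was not tested.

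Rora is the nuclear receptor whose loss causes the staggerer phenotype in mice, in which Purkinje cells fail to mature. It had 347, 325, 309 and 336 CPM in poly(I:C) knockouts, 406, 353, 354 and 346 CPM in saline knockouts and 402, 369, 384 and 420.4 CPM in FVB. Poly(I:C) knockouts were below every FVB library, and saline knockouts overlapped both other groups. Means were 329 ± 16.2 CPM in poly(I:C) knockouts, 365 ± 27.5 CPM in saline knockouts and 394 ± 22.5 CPM in FVB. Rora fell by 16.3% in poly(I:C) knockouts relative to FVB (log2 −0.26, SE 0.0657, adjusted p = 0.0219). Neither of the steps in between passed, at −0.15 for poly(I:C) over saline in the knockout (adjusted p = 0.284) and −0.11 for saline knockout over FVB (adjusted p = 0.563). The call against FVB ended without poly(I:C) knockout 2 (adjusted p = 0.0612) or 3 (0.0911), and without FVB 1 (0.0564) or 4 (0.0798).

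Lhx5, a LIM-homeodomain factor of young Purkinje cells, ran the other way. It had 25.4, 20.1, 23.6 and 21.5 CPM in poly(I:C) knockouts, 16.0, 13.6, 17.7 and 21.3 CPM in saline knockouts and 22.5, 19.5, 22.5 and 21.1 CPM in FVB. The saline knockout was the group that stood apart, with 3 of its 4 libraries below all 8 others and saline knockout 4 among them. The fold change was 0.40 for poly(I:C) over saline in the knockout (SE 0.117, adjusted p = 0.0754) and −0.32 for saline knockout over FVB (SE 0.117, adjusted p = 0.238), 2 values that share the saline knockouts. Neither was called, but without saline knockout 4 the first had an adjusted p of 0.0102. The related Lhx1 hardly differed between groups, at 76.9 ± 6.13 CPM in poly(I:C) knockouts, 75.8 ± 1.40 CPM in saline knockouts and 77.4 ± 2.78 CPM in FVB, and its interval over the saline knockout ran from −0.11 to 0.15.

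The remaining transcription factors, the forkhead proteins Foxp2 and Foxp4 and the corepressor Skor2, were not called in any comparison. Foxp2 averaged 8.78 CPM in poly(I:C) knockouts, 10.5 CPM in saline knockouts and 9.33 CPM in FVB, with a fold change of −0.25 for poly(I:C) in the knockout (adjusted p = 0.353). Foxp4 averaged 62.2 CPM in poly(I:C) knockouts, 65.0 CPM in saline knockouts and 66.2 CPM in FVB. Skor2 averaged 13.6 CPM in poly(I:C) knockouts, 13.1 CPM in saline knockouts and 12.5 CPM in FVB.

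**Figure D3:**
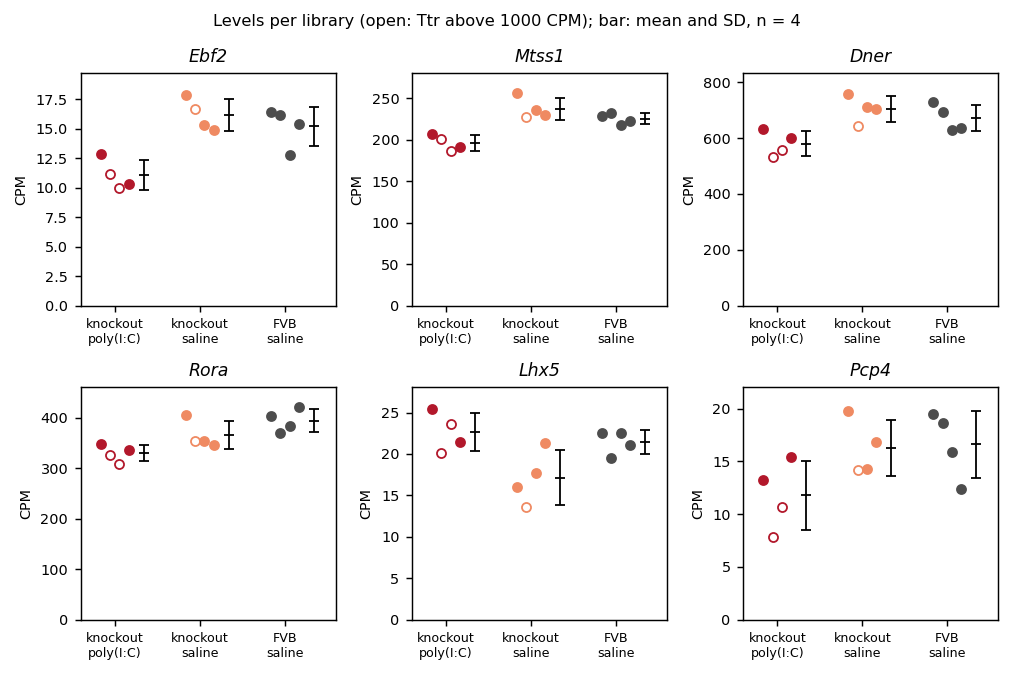
CPM of Ebf2, Mtss1, Dner, Rora, Lhx5 and Pcp4 in each library by group, with bars for the mean and SD of 4 libraries; open points are the 3 libraries with Ttr above 1000 CPM. For Ebf2, Mtss1 and Dner all poly(I:C) knockouts are below all saline knockouts, while Lhx5 is lowest in 3 saline knockouts and Pcp4 overlaps between all groups.

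The 6 members that act at the synapse, the surface or the plasma membrane include Mtss1 and Dner. Mtss1, which binds curved membrane and actin and shapes Purkinje cell dendrites and spines, had 208, 201, 186.5 and 191 CPM in poly(I:C) knockouts, 256, 228, 236 and 230.1 CPM in saline knockouts and 229, 232, 218 and 223 CPM in FVB. Every poly(I:C) knockout was below every library of both other groups. Mtss1 averaged 197 ± 9.60 CPM in poly(I:C) knockouts, 237 ± 12.9 CPM in saline knockouts and 225 ± 6.53 CPM in FVB. It fell by 17.2% relative to the saline knockout (log2 −0.27, SE 0.0581, adjusted p = 0.0117) and by 12.8% relative to FVB (log2 −0.20, SE 0.0581, adjusted p = 0.0469). The call against the saline knockout ended without poly(I:C) knockout 3 or saline knockout 1, at adjusted p values up to 0.0610, and the call against FVB ended in 9 of the 12 fits that leave out 1 library.

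Dner, a surface protein through which Purkinje cells signal to Notch on Bergmann glia, had 630.8, 531.2, 558.7 and 599.5 CPM in poly(I:C) knockouts, 759, 642, 713 and 703 CPM in saline knockouts and 727, 693, 629 and 636 CPM in FVB. Poly(I:C) knockouts were all below the saline knockouts, by a narrow margin between poly(I:C) knockout 1 and saline knockout 2, and poly(I:C) knockout 1 overlapped FVB 3. The fall relative to the saline knockout was 17.6% (log2 −0.28, SE 0.0718, adjusted p = 0.0403). Over FVB the fold change was −0.21 (SE 0.0718, adjusted p = 0.0873) and was not called. Of the 12 fits that leave out 1 library, 8 ended the call against the saline knockout, with adjusted p up to 0.146 without poly(I:C) knockout 2.

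The other 4 of this role were not called. Slc1a6, the glutamate transporter EAAT4 of Purkinje cell spines, averaged 144 ± 10.8 CPM in poly(I:C) knockouts, 161 ± 10.9 CPM in saline knockouts and 160.5 ± 13.5 CPM in FVB, with fold changes of −0.16 over both (adjusted p = 0.292 and 0.213). Kitl, the ligand for the Kit receptor of molecular layer interneurons, was at 137 ± 10.5 CPM in poly(I:C) knockouts, 153 ± 17.1 CPM in saline knockouts and 151 ± 17.1 CPM in FVB (adjusted p = 0.388 for poly(I:C) in the knockout). Kit itself, among the interneuron genes, fell to 212 ± 30.9 CPM in poly(I:C) knockouts, against 307 ± 28.7 CPM in FVB (log2 −0.54, SE 0.110, adjusted p = 0.00731), where Kitl was at −0.15 (adjusted p = 0.359). That call on Kit ended without the 3 libraries high in Ttr (log2 −0.39, adjusted p = 0.131), and Kit was at −0.20 for poly(I:C) over saline in the knockout (adjusted p = 0.416) and −0.34 for saline knockout over FVB (adjusted p = 0.174). Nsg1, an endosomal protein of neurons, had 1009, 951, 1017 and 980.3 CPM in poly(I:C) knockouts, 1064, 964, 1126 and 985 CPM in saline knockouts and 1084, 1143, 957.5 and 932.5 CPM in FVB, with the groups overlapping.

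Grid2ip, or delphilin, a scaffold protein of parallel fibre synapses, was described by library because of its spread, a choice made after its values were seen. It had 48.6, 44.0, 46.9 and 49.0 CPM in poly(I:C) knockouts, 52.6, 39.0, 48.8 and 24.2 CPM in saline knockouts and 54.6, 49.1, 44.9 and 53.3 CPM in FVB. Saline knockout 4 was the lowest of all 12, and the groups overlapped. Its fold change for saline knockout over FVB, −0.30 (SE 0.192, adjusted p = 0.611), was among the largest of that comparison and was not called. The same library had the lowest sum of the 21 other Purkinje cell genes, 8457 CPM.

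The 5 calcium-binding and calcium-pumping members were all below 0 for poly(I:C) over saline in the knockout and for saline knockout over FVB. Their values for poly(I:C) knockout over FVB add up these 2 steps and so had to be below 0 as well. None was called. Their median fold change was −0.15 for poly(I:C) over saline in the knockout, −0.03 for saline knockout over FVB and −0.19 for poly(I:C) knockout over FVB. Pcp4, whose fold changes were the largest of the 5, had 13.25, 7.797, 10.68 and 15.41 CPM in poly(I:C) knockouts, 19.81, 14.21, 14.25 and 16.88 CPM in saline knockouts and 19.48, 18.63, 15.94 and 12.40 CPM in FVB (given by library after its values were seen). Poly(I:C) knockouts 2 and 3, which are the libraries of that group with high Ttr, were the lowest of the 12. The fold changes were −0.47 (SE 0.195, adjusted p = 0.263) over the saline knockout and −0.49 (SE 0.195, adjusted p = 0.158) over FVB, with intervals down to −0.89 and −0.91.

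Calb1, the calbindin used to stain Purkinje cells, had 1102, 904, 929 and 865 CPM in poly(I:C) knockouts, 1122, 892, 816 and 1126 CPM in saline knockouts and 1149, 975, 1005 and 1204 CPM in FVB. The groups overlapped, and no comparison passed (adjusted p = 0.859 for poly(I:C) over saline in the knockout, 0.714 for saline knockout over FVB and 0.340 for poly(I:C) knockout over FVB). Atp2a3, a calcium pump of the endoplasmic reticulum, averaged 338 ± 30.9 CPM in poly(I:C) knockouts, 377 ± 30.1 CPM in saline knockouts and 384 ± 16.8 CPM in FVB, and was lower than FVB without overlap (log2 −0.19, SE 0.0730, adjusted p = 0.137). Atp2b2, the plasma membrane calcium pump PMCA2, averaged 913 ± 42.3 CPM in poly(I:C) knockouts, 1015 ± 139.5 CPM in saline knockouts and 1023 ± 70.8 CPM in FVB. It too was lower in poly(I:C) knockouts than in FVB without overlap and was not called (log2 −0.16, SE 0.0841, adjusted p = 0.272). Pvalb averaged 749 ± 40.7 CPM in poly(I:C) knockouts, 763 ± 48.9 CPM in saline knockouts and 819 ± 71.8 CPM in FVB (adjusted p = 0.317 for poly(I:C) knockout over FVB).

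Of the 8 signalling members none was called, and most lay close to 0. Pcp2, also called L7, which binds G-protein alpha subunits, averaged 236 ± 10.7 CPM in poly(I:C) knockouts, 238 ± 19.8 CPM in saline knockouts and 218 ± 17.5 CPM in FVB, with an interval of −0.16 to 0.13 for poly(I:C) in the knockout. Rgs8, a regulator of G-protein signalling, had 1248, 1313, 1446 and 1535 CPM in poly(I:C) knockouts, 1455, 1218, 1589 and 1386 CPM in saline knockouts and 1332, 1357, 1214 and 1172 CPM in FVB. The knockouts overlapped FVB, and the fold change for saline knockout over FVB was 0.15 (SE 0.0841, adjusted p = 0.508). Gng13, a G-protein gamma subunit, had 52.0, 57.0, 50.4 and 45.1 CPM in poly(I:C) knockouts, 50.3, 42.4, 54.1 and 55.1 CPM in saline knockouts and 56.3, 54.9, 55.0 and 61.4 CPM in FVB. FVB libraries were at or near the top, but saline knockout 4 and poly(I:C) knockout 2 reached into their range, and −0.17 for saline knockout over FVB did not pass (SE 0.0854, adjusted p = 0.440).

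Arhgef33, a guanine nucleotide exchange factor by its family, had 181, 156, 158 and 176 CPM in poly(I:C) knockouts, 187, 159, 167 and 146 CPM in saline knockouts and 194, 177, 165 and 195 CPM in FVB. The groups overlapped, with −0.15 for saline knockout over FVB (SE 0.0786, adjusted p = 0.491). Car8, a carbonic anhydrase-related protein that binds the inositol trisphosphate receptor, had 1457, 1288, 1239 and 1352 CPM in poly(I:C) knockouts, 1533, 1397, 1377 and 1388 CPM in saline knockouts and 1449, 1446, 1291 and 1525 CPM in FVB. Its groups overlapped, and its fold change was −0.09 for poly(I:C) in the knockout (adjusted p = 0.568). Ppp1r17, the phosphatase inhibitor known as G-substrate, averaged 325 ± 8.39 CPM in poly(I:C) knockouts, 362 ± 12.6 CPM in saline knockouts and 356 ± 28.0 CPM in FVB. It was lower than in saline knockouts without overlap but was not called (log2 −0.15, SE 0.0620, adjusted p = 0.232). The inositol phosphatase Inpp5a was at 432 ± 12.4 CPM in poly(I:C) knockouts, 467 ± 29.7 CPM in saline knockouts and 454 ± 27.5 CPM in FVB. The tyrosine phosphatase Ptprr was at 130.4 ± 7.92 CPM in poly(I:C) knockouts, 136 ± 6.29 CPM in saline knockouts and 135 ± 11.8 CPM in FVB.

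Neither metabolic enzyme was called. Aldoc, the aldolase known as zebrin II that marks stripes of Purkinje cells and also astrocytes, had 2172, 2114, 2327 and 2179 CPM in poly(I:C) knockouts, 2534, 2051, 2332 and 2191 CPM in saline knockouts and 2384, 2190, 2346 and 2358 CPM in FVB. The groups overlapped, and the interval for poly(I:C) in the knockout was −0.19 to 0.09. Car7, a cytosolic carbonic anhydrase, averaged 54.7 ± 3.04 CPM in poly(I:C) knockouts, 59.7 ± 0.855 CPM in saline knockouts and 60.9 ± 8.70 CPM in FVB. It was lower than in saline knockouts without overlap and was not called (log2 −0.13, SE 0.0828, adjusted p = 0.505).

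Averaged over the 29 members, the log2 level per library was 7.37, 7.25, 7.30 and 7.33 in poly(I:C) knockouts, 7.52, 7.30, 7.44 and 7.37 in saline knockouts and 7.47, 7.47, 7.34 and 7.45 in FVB. The groups overlapped, and the libraries with high Ttr were the lowest of their groups, with poly(I:C) knockouts 2 and 3 below the other 2 and saline knockout 2 below the other 3. Without Aldoc, Pvalb, Atp2b2 and Nsg1, which other cerebellar cells also use, the average ran from 6.80 to 6.93 in poly(I:C) knockouts, 6.86 to 7.07 in saline knockouts and 6.89 to 7.03 in FVB. Whether the remaining members, Rora among them, are used only by Purkinje cells was not tested. The part of choroid plexus RNA in these levels was not tested beyond the fits without those libraries and with Ttr as a covariate.

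Other Purkinje cell genes, mainly of the glutamate receptor pathway and ion channels, were compared with the members. Of 21 such genes 1 was called lower after poly(I:C) in the knockout, where 1.06% of all genes were called lower. In the saline knockout 3 were called lower than in FVB: Plcb3 (log2 −0.39), Stk17b (−0.33) and Kcnd3 (−0.26). There 1.53% of all genes were called in either direction and none of the 29 members was. The difference between the lists was not tested. Against FVB the poly(I:C) knockout had 5 of the 21 called lower, where 3.24% of all genes were called lower. They included the kinase Stk17b (log2 −0.50, SE 0.0629, adjusted p = 3.13e-05) and the phospholipase Plcb3 (log2 −0.31, SE 0.0677, adjusted p = 0.00800). None of the 21 was called higher, and the list's medians were −0.09 for poly(I:C) over saline, −0.05 for saline knockout over FVB and −0.17 for poly(I:C) knockout over FVB. Without the 3 libraries high in Ttr, 2 of the 21 were called lower in the saline knockout and 1 in the poly(I:C) knockout against FVB, and none after poly(I:C) in the knockout. Of all genes 1.16%, 2.81% and 1.09% were called in either direction in these comparisons, in the same order.

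Genes of neighbouring cells give the setting of these values. The 13 genes of molecular layer and Golgi interneurons summed to 1442 to 1656 CPM in poly(I:C) knockouts, 1554 to 1840 CPM in saline knockouts and 1721 to 2027 CPM in FVB, so that poly(I:C) knockouts and FVB did not overlap. In that comparison 4 of the 13 were called lower (Sorcs3, Kit, Gad1 and Nxph1), with a list median of −0.26, and without the 3 libraries high in Ttr none was (median −0.18). Of all genes 3.24% were called lower there. Saline knockouts had 11 of the 13 below FVB (median −0.14), with Sorcs3 called (log2 −0.41, adjusted p = 0.0424). Leaving out the 3 high-Ttr libraries ended that call (log2 −0.38, adjusted p = 0.137). For poly(I:C) over saline in the knockout 10 of the 13 were below 0 (median −0.09), and none was called. Purkinje cells also use Gad1, Gad2 and Slc32a1 of that list, which carry much of its sum. They averaged 755, 197 and 135 CPM in FVB, where the list summed to 1854 CPM on average. In poly(I:C) knockouts they averaged 596, 170 and 122 CPM, and the list 1535 CPM. Granule cell genes overlapped between groups, at 8412 to 8849 CPM in poly(I:C) knockouts, 8515 to 9267 CPM in saline knockouts and 8216 to 9296 CPM in FVB, and 1 of 13 was called, Calb2, lower in poly(I:C) knockouts than in FVB (log2 −0.39, adjusted p = 0.0272). The 14 astrocyte and Bergmann glia genes summed to 6099 to 6760 CPM in poly(I:C) knockouts, 6350 to 6971 CPM in saline knockouts and 6217 to 6932 CPM in FVB. Among them Aqp4 was called lower in poly(I:C) knockouts than in saline knockouts (log2 −0.36, adjusted p = 0.0368) and FVB (−0.33, adjusted p = 0.0328), and Itih3 was called higher than in FVB in both knockout groups. Of 10 oligodendrocyte genes Opalin was called lower after poly(I:C) in the knockout (log2 −1.27, adjusted p = 2.02e-04). Of 10 microglia genes P2ry12 (−0.62) and Csf1r (−0.41) were called lower and C1qb higher (0.72) for poly(I:C) over saline in the knockout. Against FVB, Fcrls was called lower in both knockout groups, and P2ry12 lower and C1qb higher in poly(I:C) knockouts. Without the 3 libraries high in Ttr, of these calls for poly(I:C) over saline only that of Opalin remained (log2 −1.11, adjusted p = 0.00747). Against FVB, those of Aqp4 (−0.23, adjusted p = 0.401) and of Itih3 in poly(I:C) knockouts (0.36, adjusted p = 0.0930) ended. So did those of Mobp (0.49, adjusted p = 0.131), P2ry12 (−0.57, adjusted p = 0.154) and C1qb (0.46, adjusted p = 0.206) in poly(I:C) knockouts. In poly(I:C) knockouts Calb2 (−0.43, adjusted p = 0.0333), Opalin (−0.84, adjusted p = 0.0252) and Fcrls (−1.24, adjusted p = 0.0115) stayed called against FVB. In saline knockouts Itih3 (0.56, adjusted p = 0.00418) and Fcrls (−1.17, adjusted p = 0.0123) stayed called. Gfap of the astrocyte list was then called higher in poly(I:C) knockouts than in saline knockouts (0.43, adjusted p = 0.0429) and FVB (0.43, adjusted p = 0.0148). Whether the share of any cell type differed was not tested.

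**Figure D4:**
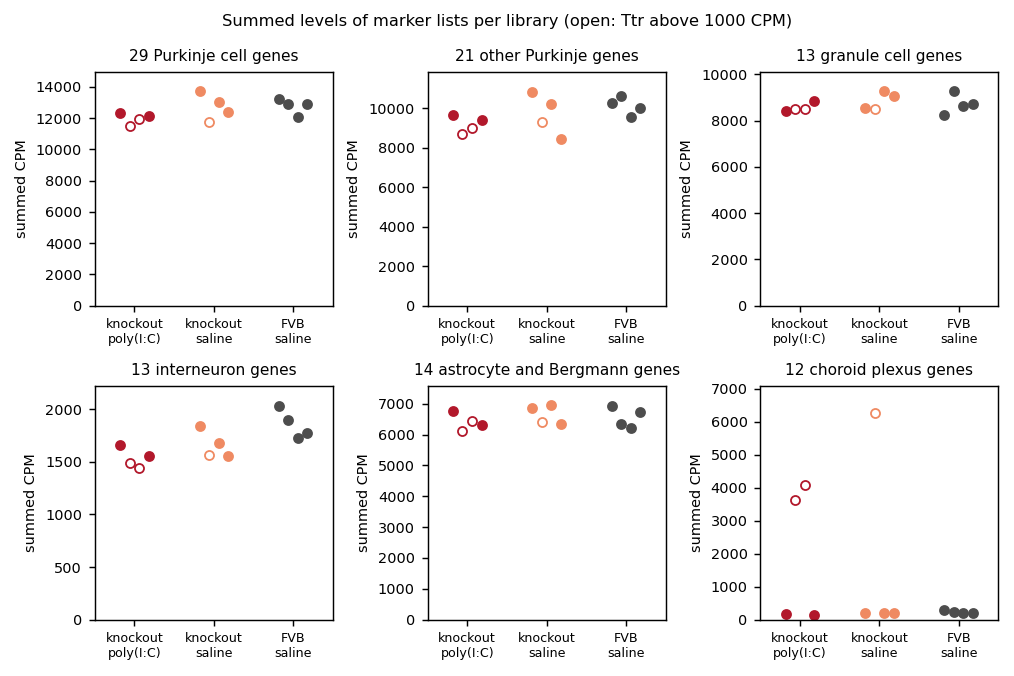
Summed CPM per library (points, by group, from 0) of the 29 Purkinje cell genes, 21 other Purkinje cell genes, and genes of granule cells, interneurons, astrocytes with Bergmann glia, and choroid plexus; open points are the 3 libraries with Ttr above 1000 CPM. The Purkinje cell sums overlap between all groups, the interneuron sums of poly(I:C) knockouts lie below those of FVB, and the choroid plexus sum is at 3619 to 6263 CPM in the open points and at most 284 CPM in the others.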

How the data were processed

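Total RNA from cerebellar crus 1 of 12 mouse samples was sequenced. The authors deposited raw read counts per gene as 1 table of 57010 Ensembl genes. Per the submitters' processing notes these came from Trim Galore, HISAT2 and featureCounts on GRCm39, and neither versions, strand setting nor the rule for shared reads is given in the sources used here. Per the labels' protocols, TruSeq libraries were made from RNA with a required integrity number. GENCODE M21 supplied the symbols of 52029 identifiers and the union exon lengths for RPKM.

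From the deposited counts, genes passing edgeR's filterByExpr (minimum count 10, minimum total 15) received TMM factors, and edgeR 4.0.16 (robust quasi-likelihood, R 4.3.3) fitted 3 group means, leaving 9 residual degrees of freedom. Each comparison is a contrast with Benjamini-Hochberg adjustment over all 19166 tested genes, called at 0.05. Standard errors (SE) divide the size of each log2 fold change by its root F. Log2 CPM carries a prior count of 2. Libraries held 35155420 to 56390207 counts, and no member had fewer than 286 in any library. Values are means ± SD over 4 libraries.

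The members and lists were chosen with earlier results of these data known. All 29 members are named. Values per library are given for members called in any comparison, for the 3 smallest p per comparison and for the 5 highest mean CPM, and other lists name up to 4 called genes. The alternatives were DESeq2 1.42.0, limma-voom (limma 3.58.1), other scaling, filters, thresholds and groups, a replicate block, a Ttr covariate, and leaving out libraries. Replicate numbers are not used as pairs. The analysis was tested on simulated data. No libraries agreed within sampling noise. Some genes are not reported here.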

Additional observations from a re-analysis of the deposited data

Results flagged for a closer look

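In 4 of 90 groups of 4 libraries (29 members and the member average, in 3 groups), 1 library lay far from the other 3 by Dixon's criterion, which chance passes in about 1 of 20 groups. Car8 was at 1533 CPM in saline knockout 1, and the other saline knockouts had 1377 to 1397 CPM. Rora in the same library was at 405.8 CPM, and the others had 346 to 354 CPM. Pvalb was at 690.3 CPM in saline knockout 2, a library high in Ttr, and the others had 782 to 795 CPM. Ppp1r17 was at 314.6 CPM in FVB 3, and the other FVB libraries had 368 to 374 CPM. None of the 4 genes was called in a comparison, except Rora in the poly(I:C) knockout against FVB, which does not use saline knockout 1 other than through the shared estimate of spread.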

How the results depend on the processing

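In all 23 alternatives the members' median stayed below 0 for poly(I:C) over saline (−0.12 to −0.07) and for poly(I:C) knockout over FVB (−0.16 to −0.09), lay on either side of 0 for saline knockout over FVB (−0.04 to 0.03), and no member was called in the last of these. The count of members called lower after poly(I:C) in the knockout was 0 without the 3 libraries high in Ttr, and 1 to 3 without 1 library, with 1 left without poly(I:C) knockout 3 or saline knockout 1. Against FVB it was 0 without the libraries high in Ttr, 1 with log2 Ttr as a covariate (Ebf2), and 0 to 3 without 1 library. It was then 0 without poly(I:C) knockout 3 or FVB 1, and 1 without poly(I:C) knockout 2 or 4 or FVB 2 or 4. Lhx5 was called higher after poly(I:C) in 6 of 23 alternatives, among them DESeq2 and Ttr as a covariate. The replicate block gave 4 members after poly(I:C) (adding Lhx5) and 3 against FVB, and all-gene counts of 563, 274 and 1322 for poly(I:C) over saline, saline knockout over FVB and poly(I:C) knockout over FVB. Same-numbered libraries deviated together little or not at all (r −0.10 to 0.15, over 0.1 in 2 of 12 pairs), and the number was not used as a pairing. Such correlations cannot exclude that same-numbered libraries were handled together.

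Over all genes, poly(I:C) over saline in the knockout gave 550 calls, 986 with DESeq2, 917 at adjusted p under 0.1, 215 without the libraries high in Ttr and 347 to 689 without 1 library. Saline knockout over FVB gave 294, 633 with DESeq2, 506 with no filter, 494 at 0.1 and 156 to 300 without 1 library. Poly(I:C) knockout over FVB gave 1352, 2123 at 0.1, 556 without the libraries high in Ttr and 791 to 1542 without 1 library. Fewer libraries were fitted where libraries were left out, and other causes were not tested. Every member had at least 286 counts in each library, and precision rests on 4 libraries per group.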
